A study of Mus musculus with 2 samples.

Results

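The small RNA reads described here are miRNA tags of 20 to 24 nt that carry a G where the miRNA hairpin has an A, at an internal base (bases 2 to 16, counted from 1 at the 5′ end of the tag). A tag is a distinct read sequence with its number of reads. A tag was taken when it matched no transcript of GENCODE M21 perfectly and differed by only 1 base from a tag of the same length, its parent, that matched a hairpin and had at least 1000 reads over both libraries. The rule found 498 such A-to-G tags, 10.6% of the 4716 tags found in the same way for all 12 types of mismatch, and the other 11 types served as the background. The tags were chosen by measured values, the reads of the parents and the presence of a G, so the counts and rates of A-to-G are given as descriptions.

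The small RNA came from cultures of J1, a mouse embryonic stem cell line (mESCs). The medium contained LIF at 1000 U/mL, which supports self-renewal. The cells received for 24 h either DMSO, the solvent control, or 1 μM PD0325901 (PD), an inhibitor of MEK that blocks ERK signaling, with LIF present in both. RNA of 3 experiments was pooled for each treatment before sequencing, so 1 library stood for DMSO and 1 for PD, and no spread between cultures can be given. The libraries held 18870345 and 20944808 clean reads, and the miR-290-295 cluster, the main miRNA cluster of mouse ESCs, held 31.3% and 30.4% of the parent reads. All intervals are 95% intervals and, like the tests on reads, cover counting error only.

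ADAR enzymes deaminate adenosine to inosine in double-stranded RNA, and reverse transcriptase copies inosine as if it were G, so that an edited miRNA is sequenced with G in place of A. Editing of a hairpin can change the bases of the seed (bases 2 to 8), which choose the targets of a miRNA, or the cutting of the hairpin by Drosha and Dicer. ADARs prefer an A after U and before G, and miR-376 and other miRNAs of the imprinted Dlk1-Dio3 region of chromosome 12 are textbook examples in brain. Sequencing and reverse transcription errors and genomic copies that carry G give the same reads, and they cannot be told apart from inosine in these counts.

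The following pairs are the most frequent tag of the parent and the A-to-G tag at 4 sites, printed because their shares of G were among the highest, with the A or G at the site in capitals. The tags of miR-467a, of the 3p side of the hairpin, match several hairpins of chromosome 2, and in the copy Mir467a-1 base 9 is position 10476399 of GRCm38 (plus strand).
miR-467a parent: atatacatAcacacacctacac
miR-467a A-to-G tag: atatacatGcacacacctacac
The tags of miR-669a, also of the 3p side, have base 10 at position 10476917 of chromosome 2 in the copy Mir669a-1 (plus strand).
miR-669a parent: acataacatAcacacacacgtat
miR-669a A-to-G tag: acataacatGcacacacacgtat
The tags of miR-376b-3p and of the 3p side of Mir376c, whose parents were below 1000 reads, have base 6 at positions 109723513 and 109722775 of chromosome 12, and were chosen after their values were seen, like those of miR-669a.
miR-376b-3p tag with A: atcatAgaggaacatccactt
miR-376b-3p tag with G: atcatGgaggaacatccactt
Mir376c tag with A: aacatAgaggaaatttcacgt
Mir376c tag with G: aacatGgaggaaatttcacgt

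For comparison, the following pairs belong to abundant miRNAs among the 10 sites with the highest share of G (at least 10 A-to-G reads in each library) or the 5 sites with most A-to-G reads. The change in let-7c-5p (A7G), miR-25-3p (A7G), miR-423-5p (A3G), miR-140-3p (A5G) and miR-290a-5p (A5G) lies in the seed, while that in miR-293-3p (A9G) and miR-103-3p (A14G) lies outside it.
let-7c-5p parent: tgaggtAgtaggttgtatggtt
let-7c-5p A-to-G tag: tgaggtGgtaggttgtatggtt
miR-25-3p parent: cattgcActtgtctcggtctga
miR-25-3p A-to-G tag: cattgcGcttgtctcggtctga
miR-423-5p parent: tgAggggcagagagcgagacttt
miR-423-5p A-to-G tag: tgGggggcagagagcgagacttt
miR-140-3p parent: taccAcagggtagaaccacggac
miR-140-3p A-to-G tag: taccGcagggtagaaccacggac
miR-290a-5p parent: actcAaactatgggggcactttt
miR-290a-5p A-to-G tag: actcGaactatgggggcactttt
miR-293-3p parent: agtgccgcAgagtttgtagtgt
miR-293-3p A-to-G tag: agtgccgcGgagtttgtagtgt
miR-103-3p parent: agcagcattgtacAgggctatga
miR-103-3p A-to-G tag: agcagcattgtacGgggctatga

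Most A-to-G tags were rare. Of the 498 tags, 262 had 1 read over both libraries, 83 had 2 and 153 had 3 or more, and only 44 reached 10 reads and 12 reached 20. The most frequent, that of miR-467a, had 101. Both libraries held 183 of the tags, while 150 were read only with DMSO and 165 only with PD. The 262 tags with 1 read could be in only 1 library, so these counts do not mark tags particular to a library. The same counts for the other types are not given here. Together they had 1775 reads, 832 with DMSO and 943 with PD, or 44.1 and 45.0 RPM (reads scaled to the clean reads of the library), and they made up 9.90% of the 17935 mismatch reads of all types. They came from 219 of the 303 parents and from 103 of the 122 hairpins that had a parent. The G was at bases 2 to 8 in 271 tags, which therefore carried another seed than their parent, and at bases 9 to 16 in 227. A single tag was near more than 1 parent, and 3 further tags were left out because they matched another transcript.

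Over all parents, A-to-G was found at 1.23 reads per 10000 sequenced parent bases A (1.17 to 1.28). This was the 5th highest of the 12 mismatch types, below C-to-T at 2.26, G-to-T at 2.06, T-to-G at 1.54 and T-to-C at 1.52. T-to-C, the opposite strand's form of the same base change, was thus read more often per base than A-to-G. The types below were G-to-A at 0.775, G-to-C at 0.687, T-to-A at 0.666, A-to-T at 0.559, C-to-A at 0.545, C-to-G at 0.448 and A-to-C at 0.154. The A-to-G rate was 1.78 times the median of the other 11 types. Among the 3 changes that an A can take, A-to-G was read 2.19 times as often as A-to-T and 7.96 times as often as A-to-C. Without the 2 hairpins described next the A-to-G rate was 1.14, a setting added after the data were seen.

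Single sites showed a few high shares over a low floor. A site is a base A of a hairpin, with all its parent tags summed, and its share is that of reads with G among the reads with A or G. Of the 576 A-to-G sites, 268 had no read with G, and the median share was 0.00471%. For the sites without a read, by the parent reads alone, a count of 0 allows a share of up to 0.00268% to 0.296%, with a median limit of 0.102%. The lowest of these limits does not hold. It belongs to let-7f-5p, at a base A where G gives the tag of let-7a-5p. That tag matches a hairpin, so the rule left it out and this 0 limits no share. The site is counted among the 268 and among the deeply read sites that follow. Other sites of this kind were not searched for. The 62 sites with at least 50000 parent reads, where the depth limits least, all had shares between 0% and 0.0284%, with a median of 0.0102%. The 700 sites of that depth of the other 11 types had a median of 0.00661% and reached 0.147%. A share of 1% or more in both libraries was found for 2 of 576 A-to-G sites (0.347%) and for 0 of 5811 sites of the other types. Over all 12 types this was 2 of 6387 sites (0.0313%). These 2 sites were in miR-467a and miR-669a, and the site with the next highest share of all types was also A-to-G, in miR-378a.

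The site of miR-467a, a miRNA of the repeated hairpins in an intron of Sfmbt2, had the highest share. With DMSO 40 reads had G and 837 had A at base 9 (4.56%, 3.37 to 6.15), and with PD 61 had G and 802 had A (7.07%, 5.54 to 8.98). Over both libraries the share was 5.80% (4.80 to 7.00), and no read of this length had C or T at that base. The other 6 bases A of the same tag that were examined had at most 1 read with G. The tags that the rule did not use, those of 20 to 30 nt with other ends that cover the same base, gave 54 reads with G and 904 with A, a share of 5.64% (4.35 to 7.28). This interval overlaps that of the reads that chose the site. The tag with A matched 11 hairpins of the annotation, Mir467a-1 (chromosome 2, 10476346 to 10476418, plus strand) among them, so the hairpin of origin is uncertain. In the predicted fold of Mir467a-1 the A was unpaired, and its neighbours were T and C. Base 9 is outside the seed, so the tag with G kept bases 2 to 8 of its parent.

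The site of miR-669a, of the same intron, was lower. With DMSO 8 reads had G and 748 had A at base 10 (1.06%), and with PD 8 had G and 753 had A (1.05%), so the share over both was 1.05% (0.650 to 1.71). The tag with A matched 12 hairpins, and this A was also unpaired in the predicted fold of Mir669a-1. Both sites are the second A in the letters CATACAC, which were therefore looked up in every tag of 20 to 24 nt that matches a hairpin (this strand only, with no minimum of reads, chosen after the values were seen). Over these tags miR-467a had 155 reads with G and 2543 with A (5.75%), and miR-669a had 18 and 2580 (0.693%). The related miR-297a had 5 and 720 at base 9 (0.690%, 0.295 to 1.60), and the related Mir467e had 1 and 123 at base 9 (0.806%, 0.143 to 4.43). The same letters in other hairpins had 1 read with G against 7677 with A in Mir485 at base 7 (0.0130%), 1 against 5052 in Mir494 at base 9 (0.0198%), 1 against 1553 in Mir154 at base 7 (0.0644%) and 0 against 1018 in Mir350 at base 15. In the related Mir466 hairpins there were 2 and 716 at base 7 of Mir466 (0.279%), 1 and 981 at base 15 of Mir466f-2 (0.102%, 0.0180 to 0.575), 1 and 551 at base 15 of Mir466f-3 (0.181%), and 0 and 131 at base 8 of Mir466d. Several of these intervals overlap that of miR-297a, and the difference between families was not tested. Hairpins with these letters therefore differed widely in the share of G. No genome of J1 was analysed here, and a copy of these repeated hairpins that carries G was not tested.

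The third site, base 6 of the 3p side of miR-378a, lies in the seed. Its hairpin is in an intron of Ppargc1b, a coactivator of mitochondrial genes, on chromosome 18. With DMSO 34 reads had G and 4726 had A (0.714%, 0.512 to 0.996), and with PD 30 had G and 3913 had A (0.761%, 0.533 to 1.08). The share differed between the parents by length, from 0.475% (0.314 to 0.718) in the tags of 22 nt to 1.03% (0.765 to 1.39) in those of 21 nt. Tags that the rule did not use gave 6 reads with G against 701 with A (0.849%, 0.390 to 1.84). The next site of this miRNA, base 16, had 13 reads with G (0.150%). The miR-467a and miR-378a sites held 9.30% of all A-to-G reads, although the hairpins Mir467a-1 and Mir378a held only 0.0701% and 0.225% of the parent reads.

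The other sites of the highest 10 were in abundant miRNAs and had shares from 0.0125% to 0.0284%. In let-7c-5p, of a family that opposes self-renewal of ESCs, base 7 had 19 reads with G with DMSO and 14 with PD (0.0284%, 0.0202 to 0.0398). In miR-25-3p, of the miR-106b-25 cluster in Mcm7, base 7 had 16 and 17 (0.0202%). In miR-423-5p, from an intron of Nsrp1, base 13 had 14 and 17 (0.0190%) and base 3 had 13 and 13 (0.0159%). In miR-103-3p, whose tag matches 3 hairpins (Mir103-1, in an intron of Pank3, among them), base 14 had 14 and 19 (0.0151%). In miR-140-3p, from the gene Wwp2, base 5 had 13 and 29 (0.0130%). In miR-293-3p, of the miR-290-295 cluster, base 9 had 27 and 24 (0.0128%) and base 11 had 29 and 20 (0.0123%, one of the 5 sites with most reads). In miR-290a-5p, of the same cluster, base 5 had 26 and 23 (0.0125%). The share of let-7c-5p is the highest of the deeply read sites, whose median was 0.0102%. The sites here were named for high shares or many reads. Intervals above that median, such as that of miR-25-3p (0.0144 to 0.0284), are therefore no test of a difference. In the tags of 20 to 30 nt that the rule did not use, the sites of let-7c-5p, miR-25-3p, miR-140-3p and miR-290a-5p had 0 reads with G, among 1276, 644, 1252 and 5904 reads with A, which is too shallow to show shares of this size.

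The hairpins with most A-to-G reads were, apart from those of miR-467a and miR-378a, also abundant ones. The hairpin with most A-to-G reads was Mir140 with 162, or 9.13% of all A-to-G reads, and it held 8.44% of the parent reads. Mir290a had 8.96% of the A-to-G reads with 10.2% of the parent reads, Mir103-1 5.63% with 5.70%, and Mirlet7c-1 3.44% with 3.04%. The shares were further apart in Mir293 (5.97% with 11.1% of the parent reads), Mir25 (3.49% with 5.12%), Mir423 (5.46% with 4.30%) and Mir191 (3.44% with 2.34%). The tags of these hairpins differ in how many bases A they hold at bases 2 to 16. The shares of parent reads do not account for this, so they do not show a higher or lower rate per base A. By lists, the hairpins of the ESC clusters (16 with parents) had a rate of 1.07 A-to-G reads per 10000 bases (0.978 to 1.17), let-7 and miR-98 (7 hairpins) had 1.55 (1.34 to 1.78), and hairpins of no list had 1.14 (1.07 to 1.21). The other changes of A, to C or T, were also highest in let-7 and miR-98 among these 3 groups, at 0.902 (0.749 to 1.08). They had 0.716 (0.641 to 0.799) in the ESC clusters and 0.685 (0.632 to 0.742) in hairpins of no list. Base 7 of let-7 had shares of 0.0284% in let-7c-5p, 0.0239% in let-7g-5p, 0.0218% in let-7a-5p and 0.0197% in let-7f-5p, but 0.00794% (3 reads, 0.00270 to 0.0233) in let-7e-5p. let-7b-5p and let-7d-5p had 1 read each there. The members of let-7 differ by few bases, so that reads with a mismatch may be credited to the wrong member.

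Of 16 hairpins listed from general knowledge as edited in mammals, only 5 had a parent of 1000 reads. Their rate was 11.7 A-to-G reads per 10000 bases, but 1.22 (0.660 to 2.24) without the miR-467 hairpins, because Mir467d shares the tag of miR-467a. Mir22 had 0 A-to-G reads, Mir376a had 6, Mir379 had 3 and Mir411 had 1. Since the minimum of 1000 reads removed most of the list, the same count was made over all tags of 20 to 24 nt that match these hairpins, whatever their reads, after the data were seen. Then miR-376b-3p had 14 reads with G and 520 with A at base 6 with DMSO (2.62%, 1.57 to 4.35), and 16 and 497 with PD (3.12%, 1.93 to 5.01). Mir376c had 4 and 311 at its base 6 with DMSO (1.27%, 0.495 to 3.22), and 6 and 256 with PD (2.29%, 1.05 to 4.91). miR-411-5p had 9 and 2242 at base 5 with DMSO (0.400%, 0.210 to 0.758), and 3 and 1768 with PD (0.169%, 0.0576 to 0.497). In each of these 3 the base with most G had T before and G after it and lies in the seed. The intervals of DMSO and PD overlapped in all 3.

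The neighbouring miR-376a-3p, which has the same TAG at base 6, had 0 reads with G against 7773 with A, which allows a share of up to 0.0386%. At base 5 of miR-379-5p, also TAG, 3 reads had G against 7341 with A (0.0408%, 0.0139 to 0.120). Similar hairpins of the same region thus differed in the share of G at the same bases, from under 0.0386% in miR-376a-3p to 2.87% (2.01 to 4.06) in miR-376b-3p, by more than the counting error. Mir151 had 4 A-to-G reads over its bases, and Mir27a, Mir421 and Mir3099 had 1 each. Mir22, Mir99a, Mir142, Mir203, Mir381 and Mir497 had 0, with Mir99a at only 5 reads and Mir381 at 65, so that a share of some percent could not be seen there.

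The minimum of 1000 reads left miRNAs of nearly equal depth on both sides. The parents just inside were tags of miR-295-3p (1002 reads), miR-127-3p (1007), miR-22-3p (1013), miR-148a-3p (1014) and miR-744-5p (1015), and none had an A-to-G read. Just outside were tags of miR-291a-5p (997 reads, with 1 A-to-G read), miR-19b-3p (991), miR-146b-5p (982), Mir143 (980) and miR-369-3p (978), the last 4 with none.

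The rate differed with the bases around the A, and its peaks after T and before C came from the high sites. After T the rate was 1.57 A-to-G reads per 10000 bases (1.43 to 1.71), after G 1.35, after C 1.26 and after A 0.776 (0.690 to 0.872). Without the hairpins of miR-467a and miR-669a the rate after T was 1.18 (1.06 to 1.31), below that after G with 1.35 (1.23 to 1.48), while that after A was still the lowest at 0.771 (0.685 to 0.867). Before C the rate was 1.56 and before G 1.36, against 0.864 before A and 0.903 before T, and without those hairpins it was 1.19 before C and 1.35 before G, against 0.865 before A and 0.902 before T. An A in TAG, the letters ADARs prefer, had 1.43 (1.25 to 1.64), near GAG with 1.47, CAC with 1.42 and CAG with 1.38. TAC had 2.39, but 1.01 without those hairpins, and GAC had 3.59, where miR-378a gave 64 of the 92 reads. The other changes of A ranged from 0.643 after A to 0.853 after G, and from 0.584 before A to 0.971 before T. The sites share libraries and the counts of a few abundant miRNAs, so these rates are descriptions.

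By the predicted fold, unpaired bases A had a rate of 1.79 (1.61 to 2.00) and paired ones 1.14 (1.09 to 1.20). Without the hairpins of miR-467a and miR-669a the rates were 1.15 (1.01 to 1.32) and 1.14 (1.09 to 1.20). The seed and the rest of the tag had nearly the same rate, 1.19 (1.12 to 1.27) at bases 2 to 8 and 1.27 (1.18 to 1.36) at bases 9 to 16. Along the tag the rate was between 0.789 and 1.39 at 13 of the 15 bases and higher at base 6 (1.79) and base 9 (2.26). The site of miR-378a held 64 of the 131 reads of base 6, and that of miR-467a held 101 of the 192 reads of base 9. The 5p sides of the hairpins had 1.14 and the 3p sides 1.32, or 1.14 and 1.15 without the 2 hairpins.

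Between the libraries, the A-to-G rate was 1.16 reads per 10000 bases with DMSO (1.08 to 1.24) and 1.29 with PD (1.21 to 1.38), a ratio of 1.12 (1.02 to 1.23). The other 11 types had ratios from 0.869 for C-to-T to 1.07, with a median of 0.972, so A-to-G had the highest ratio of the 12. The interval of C-to-T (0.801 to 0.943) also left out 1, on the other side. Without the miR-467a and miR-669a hairpins the ratio was 1.10 (0.995 to 1.21), whose interval includes 1. When each hairpin was left out in turn it ranged from 1.09 without Mir320 to 1.14 without Mir293. With 1 library for each treatment, the treatment and the library cannot be told apart.

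The 23 A-to-G sites with at least 20 reads were compared between the libraries. The share of G was 1.5-fold or more higher with PD at 5 sites and lower at 1, while of the 171 sites of the other 11 types so tested 15.2% were higher and 19.3% lower, 34.5% in all. The 6 of 23 A-to-G sites (26.1%) were thus not more frequent than in this background. The 5 higher sites were base 16 of Mir320 (5 reads with DMSO, 16 with PD, 3.70-fold, 1.29 to 12.9), base 5 of miR-140-3p (13 and 29, 1.78-fold, 0.895 to 3.72), base 11 of miR-423-5p (8 and 14, 1.69-fold, 0.664 to 4.66), base 10 of let-7e-5p (7 and 13, 1.63-fold, 0.605 to 4.83) and base 9 of miR-467a (40 and 61, 1.55-fold, 1.02 to 2.37). The lower site was base 7 of let-7f-5p with 16 and 6 reads (0.328-fold, 0.105 to 0.882). Of these, Mir320, miR-467a and let-7f-5p had intervals without 1.

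By a 2-sided Fisher exact test on the reads of the 2 libraries, adjusted by Benjamini-Hochberg over all 194 sites, 0 of the 23 A-to-G sites passed an adjusted p of 0.05, against 0.585% of the sites of the other types. At an unadjusted p of 0.05 there were 3 of 23, against 9.36%. The lowest adjusted p of an A-to-G site in this exact test was 0.293, for Mir320. For miR-467a the adjusted p was 0.411, and for miR-378a, with shares of 0.714% and 0.761%, the ratio was 1.07 (0.630 to 1.79). These tests compare 2 libraries and not the treatments, and no change of a single A-to-G site between them was detectable at this depth after adjustment.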

How the data were processed

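Small RNA of 2 libraries (DMSO and PD, 1 each, of pooled RNA) was analysed. The authors gel-purified and sequenced it, discarded reads that were of low quality, contaminated, adapter-derived or shorter than 18 nt, and deposited the raw count of each distinct tag, unaligned. Pooling hides the spread between cultures, and base qualities are not in the counts used here. The line with the library total was left out.

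Matching used Python 3.11.15 with numpy 2.4.6, against the 1174 miRNA hairpins and all transcripts of GENCODE M21 (GRCm38), and mature names came from RefSeq (GRCm38.p6; 283 of 303 parents matched a hairpin with mature names). A tag near several parents was credited to the one with most reads. Hairpins were folded with ViennaRNA 2.7.2. Wilson intervals, Clopper-Pearson intervals of ratios and Fisher exact tests with Benjamini-Hochberg adjustment used SciPy 1.17.1. The procedure was tested on simulated data.

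The tags and lists were chosen with earlier results of these data known. Sites named were the 10 with the highest share (at least 10 A-to-G reads in each library), the 5 with most reads, listed hairpins, up to 5 each way of those changed 1.5-fold with at least 20 reads, and the parents next to 1000 reads. Sequences of chromosome 18 are not printed. Alternatives were other minimum reads, lengths, bases, crediting, strands, scalings and thresholds.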

Additional observations from a re-analysis of the deposited data

How the results depend on the processing

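Of the 79 recalculated values of the main comparisons, 59 stayed within their counting interval or within 1.5 times the count. With parents of at least 5000 reads the A-to-G rate was 1.10 per 10000 bases (1.03 with DMSO and 1.17 with PD), 1.63 times the median of the other types, and 0 sites had 1% in both libraries, since the parents of miR-467a and miR-669a were below 5000 reads. With parents of at least 500 reads there were 4 such sites. With mismatch tags of at least 3 reads only, the rate was 0.930 (0.870 and 0.989) and 1.93 times the median. Without the 2 hairpins with a site at 1%, added after the data were seen, the rate was 1.14 (1.20 with PD), 1.66 times the median, with 0 such sites. At 2% there was 1 site. Scaled to the reads of 20 to 24 nt, the ratio of PD to DMSO was 1.24, against 1.02 scaled to clean reads and 1.14 scaled to reads that match hairpins. Sites changed 1.5-fold numbered 70 of 139 with no minimum of reads, where 49.9% of all sites changed, and 1 of 3 with at least 50 reads. There were 2 at 2-fold and 0 with the adjusted p added. Of 15 named sites, only base 6 of miR-378a left its interval, at 0.475% in its most frequent parent alone. No paired analysis was possible because each treatment had 1 library. Depth limits the count of sites: a parent with 1000 reads and no G allows a share of up to 0.3%.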
